A study of Homo sapiens with 3 samples.

Results

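ANKRD11 was the nuclear gene with the most MATR3 PAR-CLIP reads in each of 3 libraries, and was chosen by that read count. Its members are the read clusters that the deposited tables assign to the gene, 759 of 388807 clusters in all, with 245, 230 and 284 in replicates 1, 2 and 3. The libraries were biological replicates from HEK293, an established human embryonic kidney line, labelled as kidney, wild type for genotype and untreated, and all were made with an antibody against MATR3. PAR-CLIP crosslinks a protein to RNA that carries a photoreactive uridine analogue, and crosslinked uridines are read as C in place of T. The 3 samples form 1 group with no control library, so the comparisons are between replicates, between places within the gene and with the clusters of other genes.

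MATR3 (matrin 3) is an abundant RNA-binding protein of the nuclear matrix that binds pyrimidine-rich stretches in introns and takes part in the control of splicing and RNA retention in the nucleus. ANKRD11 encodes a large nuclear protein with ankyrin repeats that binds p160 nuclear receptor coactivators and recruits histone deacetylases to them. Loss of 1 copy causes KBG syndrome, a developmental disorder. The gene (ENSG00000167522.17) lies on the minus strand of chromosome 16 from 89267630 to 89490561 in hg38 and spans 222932 nt. Its MANE Select transcript in GENCODE release 44, ENST00000301030.10, has 13 exons and 12 introns, with the start codon in exon 3. Intron 1 is 71.9 kb and intron 2 is 101.2 kb long, both in the 5′ untranslated part, and exon 9 with 6578 nt holds most of the coding sequence.

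Of the 601 places left after overlapping clusters of the 3 replicates were merged, 20 held clusters of all 3. The sequences below are the bases covered in all 3 replicates, shown because they are the positions on which the libraries coincide. Of the 12 regions with the largest geometric mean of reads, those with at least 20 such bases in a row are given, written from 5′ to 3′ on the gene strand. Capitals mark runs of at least 5 pyrimidines.
Intron 1, chr16:89424943-89425046: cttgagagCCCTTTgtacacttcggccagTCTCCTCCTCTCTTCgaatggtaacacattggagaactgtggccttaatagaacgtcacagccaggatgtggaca
Intron 1, chr16:89466856-89466884: gaagggagcaggagctgaagatggagctc
Intron 1, chr16:89440877-89440910: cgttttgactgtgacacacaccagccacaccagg
Intron 2, chr16:89331503-89331539: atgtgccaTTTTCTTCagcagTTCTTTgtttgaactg
Intron 1, chr16:89458846-89458875: cagtgggcagcttcatgaggccggggccgc
Intron 2, chr16:89398894-89398930: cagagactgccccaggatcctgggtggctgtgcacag
Intron 2, chr16:89325578-89325605: acgcttcgcggatgtcttgtcaactaag
Intron 2, chr16:89364579-89364605: TTCTTCCagtgtggcccagggaggtca
The strongest of these regions, at chr16:89424902-89425059 in intron 1, held 76, 76 and 73 reads in replicates 1, 2 and 3 from 27, 37 and 25 distinct reads. Its core of 104 nt contains a run of 15 pyrimidines. The core in intron 2 at chr16:89331503-89331539 was 64.9% pyrimidine, whereas the second in the list was 24.1% pyrimidine and its longest run was 3. None of the 16 regions with shared bases had ATCTT in its longest shared stretch. This 5-mer is AUCUU in RNA, a motif that MATR3 is known to bind. These stretches are short, with a median of 31 nt.

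The clusters with the most reads were mostly different ones in each library. The next sequences come from leading clusters of replicates 1 and 3 and are shown to set them beside the shared cores, with ATCTT in capitals. The first is the part of the leading cluster of replicate 1 that replicate 3 also covered.
Replicates 1 and 3, chr16:89380797-89381008: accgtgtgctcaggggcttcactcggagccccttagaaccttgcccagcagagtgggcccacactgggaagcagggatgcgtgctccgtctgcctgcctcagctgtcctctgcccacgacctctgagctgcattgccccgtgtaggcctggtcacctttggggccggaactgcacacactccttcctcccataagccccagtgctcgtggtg
Replicate 1, chr16:89390341-89390572: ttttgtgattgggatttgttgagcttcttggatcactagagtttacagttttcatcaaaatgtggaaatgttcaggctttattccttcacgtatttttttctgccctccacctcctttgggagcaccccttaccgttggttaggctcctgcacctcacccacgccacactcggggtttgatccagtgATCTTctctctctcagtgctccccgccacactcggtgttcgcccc
Replicate 3, chr16:89408115-89408213: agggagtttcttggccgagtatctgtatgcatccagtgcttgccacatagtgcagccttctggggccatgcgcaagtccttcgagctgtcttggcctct
The leading cluster of replicate 1, at chr16:89380659-89381010 in intron 2, had 206 reads. A cluster of replicate 3 with 74 reads overlapped it, and replicate 2 listed none there. The leading cluster of replicate 3 lay in intron 2 with 149 reads and was found in neither other replicate. Of the 9 clusters formed by the leading 3 of each replicate, 5 were found in neither other replicate, 3 in 1 and 1 in both. The cluster found in both, at chr16:89466787-89467160 in intron 1, had 151 reads in replicate 1, against 41 and 40 reads at that place in replicates 2 and 3. Pyrimidines made up 51.2% to 64.7% of the 9 sequences and T 19.3% to 41.9%, and 4 of the 9 contained ATCTT. Of all ANKRD11 clusters 7.17% ± 1.32 contained it, and of other intron clusters 9.69% ± 0.36 (SD, n = 3). The 9 were 99 to 374 nt long, against a mean median of 49.5 nt in ANKRD11. A longer sequence holds more 5-mers, and this was not allowed for. A place without a cluster is not a place without reads, since every listed cluster has at least 4 reads and at least 2 conversion locations.

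ANKRD11 clusters held 5741, 3967 and 5656 reads in replicates 1, 2 and 3, which came from 2017, 1743 and 2028 distinct reads. Replicate 2 had the fewest of both. The tables list 1649124, 1506682 and 1532602 reads in all clusters, which is not the depth of the whole libraries. Scaled to 1000000 reads over those clusters of a library that carry a gene name, called normalised reads here, ANKRD11 had 3964, 2987 and 4162, a mean of 3704 ± 629 (SD, n = 3). The next gene by mean, PVT1, a long non-coding RNA gene, had 2432, 2905 and 3189 normalised reads, and in replicate 1 TBCD with 2651 stood above it. The lead of ANKRD11 over PVT1 was narrow in replicate 2. These values chose the gene and are a description.

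By the distance between log2 normalised reads over the 3 replicates, the 5 genes most like ANKRD11 were PVT1, TBCD, GRB10, SND1 and THSD4. TBCD, a tubulin folding cofactor, had 2735 ± 73.4 normalised reads and GRB10, an adaptor of insulin receptor signalling, had 2136 ± 161 (SD, n = 3). Gene length matters to such sums. Among 1996 protein-coding genes of at least 100 kb with clusters in all 3 replicates, ANKRD11 ranked 2 by clusters per kb, with 1.13 ± 0.13 (SD, n = 3) against a median of 0.0740. TBCD ranked ahead with 1.19 ± 0.034. By normalised reads per kb ANKRD11 ranked 1 in that set, with 16.6 against a median of 0.480. Among all 7791 protein-coding genes with clusters in the 3 replicates, short genes included, it ranked 197 by clusters per kb and 121 by normalised reads per kb. The ranks by reads per kb use the reads that chose the gene and are a description.

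Reads were spread over many sites rather than gathered in a few. The 10 clusters with most reads held 20.9%, 17% and 18.9% of the gene's reads in replicates 1, 2 and 3. The median ANKRD11 cluster had 14, 12 and 12.5 reads, compared with 9, 8 and 9 in intron clusters of other genes. The median number of distinct reads was 5 in each replicate against 3 elsewhere, and 13.5% ± 4.61 of ANKRD11 clusters rested on at most 2 distinct reads, against 34.9% ± 5.03 of other intron clusters (SD, n = 3). The gene was chosen by its reads, so these gaps in reads per cluster are a description and no separate evidence. The sequence of each of the 759 clusters occurred once in chromosomes 1 to 22, X and Y of hg38, so no cluster had an identical copy elsewhere.

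Nearly all clusters were intronic. The deposited annotation called 245 of 245, 229 of 230 and 281 of 284 clusters intronic. Of the 4 others, called 5′ UTR or a mix of 5′ UTR and intron, 3 overlapped exon 1 (1 in replicate 2 and 2 in replicate 3) and 1 lay within intron 1 of the MANE Select transcript. Over all genes, 96497 of 114952, 95588 of 114691 and 90181 of 108476 clusters with a gene annotation were intronic in replicates 1, 2 and 3. Introns make up 213631 of the 222932 nt of ANKRD11, so a high intronic share is not particular to its clusters. Exons 2 to 13 of ANKRD11, 8984 nt in all, were overlapped by 0 clusters in each of the 3 replicates. At the density of the introns, 1.18 clusters per kb ± 0.13 (SD, n = 3), a stretch of that length would hold 10.6 clusters. Exon 9 alone would hold 7.76. The longest stretch of the gene without a cluster in any replicate, chr16:89279053-89287986 with 8934 nt, runs over exons 9 and 8, intron 8 and parts of introns 9 and 7.

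**Figure D1:**
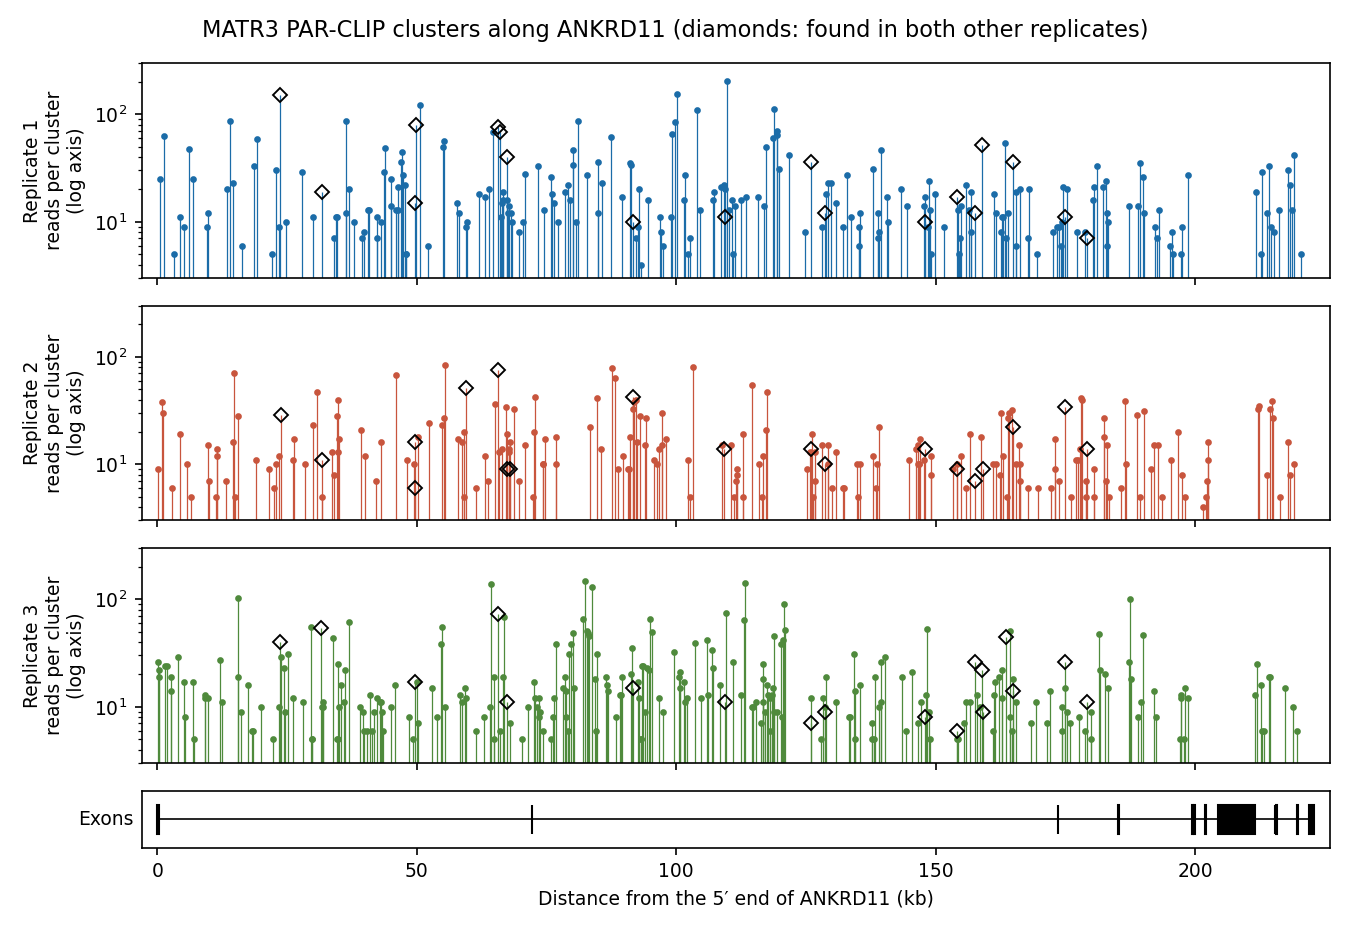
Clusters along ANKRD11 in replicates 1, 2 and 3, by the distance of their midpoint from the 5′ end of the gene (kb), with reads per cluster on a log axis and the exons of the MANE Select transcript as black boxes. Clusters fill the introns over the whole length and are absent from exon 9, the wide box near 208 kb, and the 18, 19 and 18 diamonds mark clusters found in both other replicates.

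Clusters were present in each of the long introns. Introns 1 and 2 held 31.5% ± 0.70 and 50.8% ± 3.10 of the clusters (SD, n = 3) and make up 32.2% and 45.4% of the gene. Intron 1 had 1.11 clusters per kb ± 0.13, intron 2 had 1.27 ± 0.22, intron 3 had 1.44 ± 0.13 and intron 4 had 0.998 with 14 clusters in each replicate. Intron 9, with 3.88 kb, had the highest density at 1.72 ± 0.15, from 7, 6 and 7 clusters, and intron 11 had 1.02 ± 0.26. The neighbouring introns 7 and 6 had clusters in replicate 2 alone, 4 and 1. Introns 5, 8 and 10, of 184, 389 and 135 nt, had none.

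The introns before the start codon were compared with those after it. The former had 1.21 clusters per kb ± 0.18 and the latter 1.07 ± 0.10 (SD, n = 3). The difference was 0.076, -0.11 and 0.44 in replicates 1, 2 and 3, a mean of 0.14 ± 0.28, which is within the spread (exact sign-flip permutation test, two-sided, p = 0.75). Without replicate 3 it was -0.016. Counted as reads per kb, the introns before the start codon had 25.5 ± 6.0 and those after it 16.9 ± 1.18 (SD, n = 3). The difference of 8.58 ± 7.13 had a positive sign in 3 of 3 replicates (p = 0.25 in an exact sign-flip permutation test, the smallest that 3 allow), with 12.7 in replicates 1 and 3 and 0.343 in replicate 2.

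Clusters near splice sites were few in number, and their share was set beside that of the intron length. Of the clusters with a midpoint in an intron, 5, 4 and 3 lay within 300 nt of a splice site, or 1.62% ± 0.50 (SD, n = 3), while such positions make up 2.86% of the intron length. Within 100 nt there were 0, 3 and 3, or 0.791% ± 0.70, against 1.09% of the length, with replicate 1 below that share, replicate 2 above it and replicate 3 near it. The difference from the share of length was not tested. When the gene was cut into 10 equal parts, numbered from its 5′ end, the share of clusters was 7.86% ± 1.19 in part 1 and 12.2% ± 1.30 in part 5 (SD, n = 3). It was lowest in part 10, at 5.12% ± 1.51, where exons 7 to 13 lie. By reads, part 5 held 15.2% ± 2.52 and part 7 held 6.54% ± 0.23. In windows of 5 kb, 42 of 44 held a cluster in each replicate, with at most 13, 13 and 15. Between replicates 1 and 2 the window counts had a Spearman's rho of 0.327, between 1 and 3 it was 0.449 and between 2 and 3 it was 0.122, across 44 windows of 1 gene that share libraries and are not replicates.

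**Figure D2:**
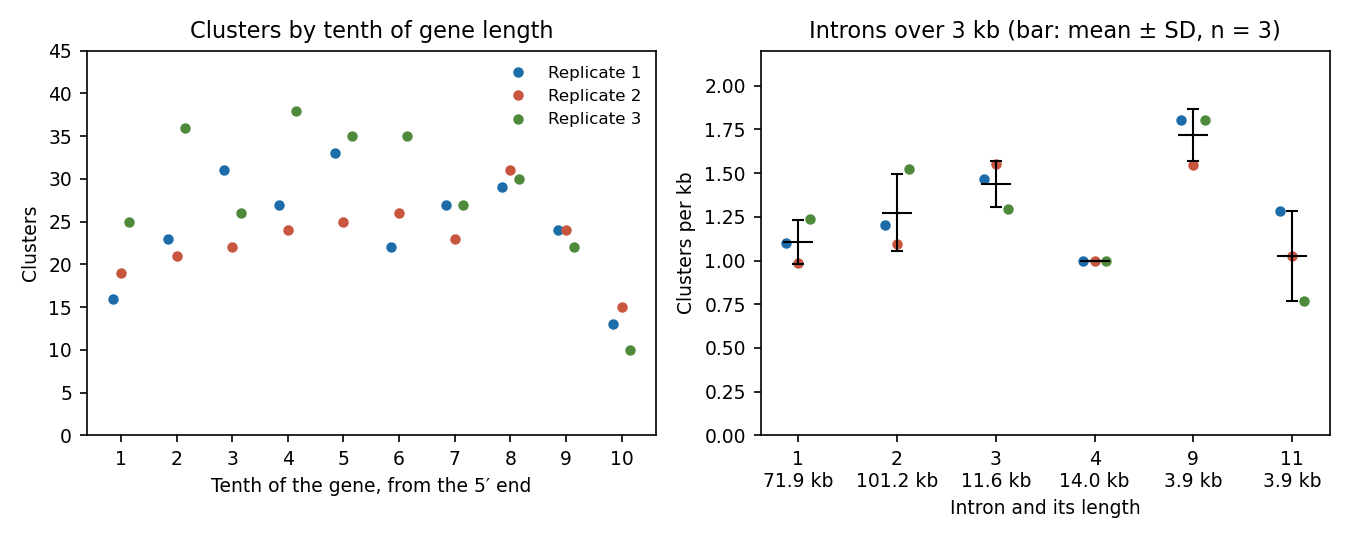
Left, clusters in each of 10 equal parts of ANKRD11 from the 5′ end, and right, clusters per kb in the 6 introns over 3 kb, with points for replicates 1, 2 and 3 and bars for the mean ± SD. The last part, with 13, 15 and 10 clusters, is the lowest in each replicate, and intron 9 has the highest mean density, 1.72 clusters per kb.

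Most ANKRD11 clusters were listed in a single replicate. A cluster was taken as found in another replicate if it shared 1 nt or more with a cluster there on its strand. In ANKRD11, 38.8%, 40% and 30.6% of the clusters of replicates 1, 2 and 3 were found in another replicate, against 21.2%, 21.0% and 22.4% of intron clusters of all genes. For both other replicates the shares were 7.35%, 8.26% and 6.34%, against 2.42%, 2.53% and 2.52%. ANKRD11 was above the other introns in 3 of 3 replicates on both measures. A gene dense in clusters also gives more overlaps between unlike positions. With the clusters shifted by 1000 nt in either direction, 26.5% ± 1.30 of ANKRD11 clusters still met a cluster of another replicate, compared with 10.8% ± 0.38 of those of other introns (SD, n = 3).

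The share found minus the share after moving was 10.002 percentage points ± 6.13 in ANKRD11 and 10.7 ± 0.38 in introns of other genes (SD, n = 3). The gap between these means is smaller than the SD in ANKRD11. As a ratio, found over moved was 1.44, 1.60 and 1.12 in replicates 1, 2 and 3, a mean of 1.38 ± 0.25, against 1.99 ± 0.011 elsewhere. Replicate 3 was the lowest of the 3. With replicates 1 and 2 alone the ratio was 2.19, with 1 and 3 alone 1.15, and with 2 and 3 alone 1.32. The distance of the move counted too, with a ratio of 1.10 ± 0.12 for 200 nt and 1.54 ± 0.14 for 5000 nt. When at least 50% of both clusters had to overlap, 18.4% ± 2.49 of clusters were found and the ratio was 2.27 ± 0.34 (SD, n = 3).

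The same shares were computed for 3 other heavily bound genes. In TBCD, with 1.19 clusters per kb, 30.8% ± 0.37 were found and 26.1% ± 2.16 after moving, and in GRB10, with 0.926 per kb, 36.8% ± 1.10 and 22.8% ± 1.71 (SD, n = 3). In SND1, which encodes a nuclease with Tudor and staphylococcal nuclease domains and had 0.507 clusters per kb, the shares were 20.2% ± 0.32 and 17% ± 1.13. As a ratio, found over moved was 1.19 ± 0.11 in TBCD, 1.62 ± 0.12 in GRB10 and 1.19 ± 0.063 in SND1 (SD, n = 3). The 1.38 ± 0.25 of ANKRD11 lies between these, so a ratio below that of other introns is not particular to it. By bases, clusters covered 7.73%, 6.74% and 7.59% of ANKRD11 in replicates 1, 2 and 3. Bases covered in both replicates of a pair made up 1.03%, 1.17% and 0.839% of the gene for pairs 1 and 2, 1 and 3, and 2 and 3. This was 1.99, 2.0 and 1.64 times the product of their coverages. Of the 42920 bases covered in any replicate, 37211 were covered in 1, 5169 in 2 and 540 in all 3.

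**Figure D3:**
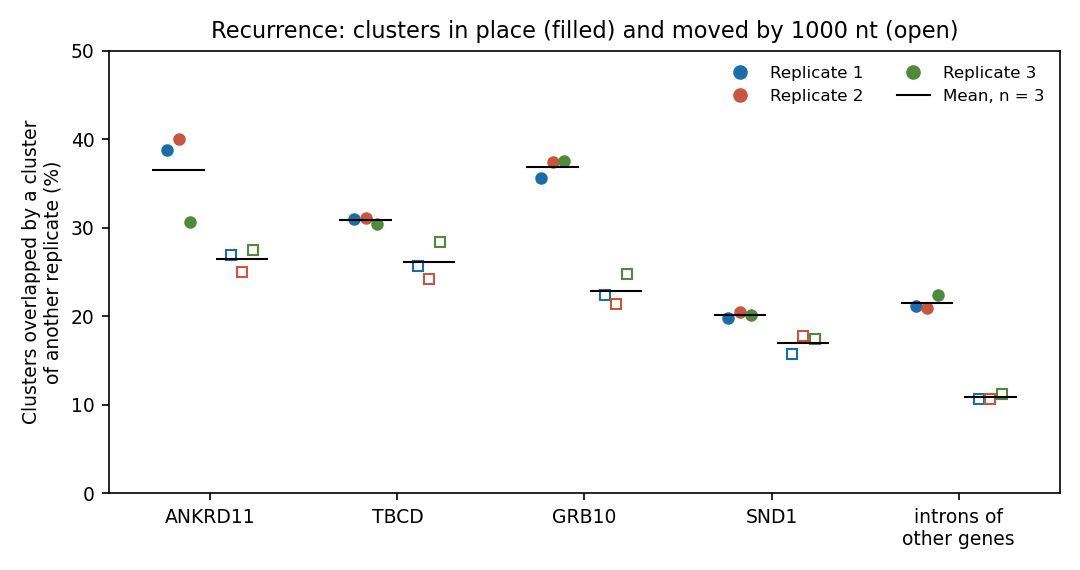
Percent of clusters overlapped by a cluster of another replicate, in place (filled) and after moving by 1000 nt (open), for ANKRD11, 3 other heavily bound or long genes and intron clusters of other genes, with points for replicates and lines for means. ANKRD11 lies at 30.6% to 40% in place and 25% to 27.5% after moving.

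Clusters found in another replicate were larger. Their median length was 59, 58.5 and 45 nt in replicates 1, 2 and 3, against 48.5, 47 and 43 nt for clusters found in none. Their median number of reads was 19, 14 and 14 against 13, 11 and 12. Reads carrying T-to-C made up 80.8% ± 1.71 and 81.4% ± 1.03 of their reads (SD, n = 3), a gap smaller than either SD. The percent of read T positions seen as C was 11.84%, 12.21% and 12.34% in clusters found in another replicate. In clusters found in none it was 11.16%, 12.19% and 11.73%, lower in each replicate though barely so in replicate 2. That difference was not tested. A longer cluster meets another more readily, so length and recurrence are not independent measures.

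Of the regions with clusters in all 3 replicates, 8 lay in intron 1, 10 in intron 2 and 2 in intron 3. Reads in them were often uneven. The second region of the ranking, chr16:89466771-89467169, held 151, 41 and 40 reads, and the third, chr16:89440706-89440933, held 94, 22 and 17. The region at chr16:89398770-89398995 was strongest in replicate 2, with 75 reads against 10 and 15. In the leading region 59.2%, 96.1% and 58.9% of reads carried T-to-C, with replicate 2 far above the others at an equal read number. Of the 20 regions, 4 were merged through chains of clusters and had no base covered by all 3.

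ANKRD11 intron clusters were longer than those of other genes. The median length was 51, 53 and 44 nt in replicates 1, 2 and 3, compared with 39, 40 and 37 nt elsewhere. They were longer in 3 of 3 replicates, by 12, 13 and 7 nt, a mean of 10.7 nt ± 3.21 (SD, n = 3, exact sign-flip permutation p = 0.25, the smallest possible). Length went with reads. Spearman's rho between them within the gene was 0.726 across 245 clusters, 0.753 across 230 and 0.730 across 284, a description of clusters that share a library. Within classes of read count, a comparison chosen after seeing the data, the difference was 0.495 nt ± 0.73 (exact sign-flip permutation p = 0.5). Clusters with 25 to 49 reads had a median length of 90.3 nt ± 11.8 in ANKRD11 and 92.0 nt ± 10.6 elsewhere (SD, n = 3).

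**Figure D4:**
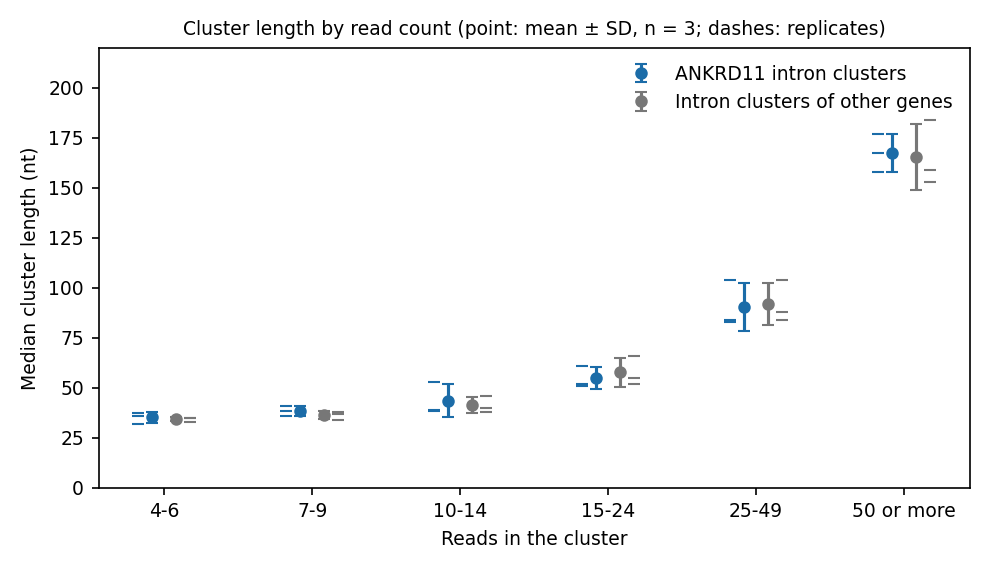
Median length of intron clusters in nt by the number of reads in the cluster, for ANKRD11 and for other genes, as mean ± SD over 3 replicates with a dash per replicate. Both rise together, from 35.2 nt and 34.3 nt at 4 to 6 reads to 167.5 nt and 165.3 nt at 50 reads or more.

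Conversion was compared as the T-to-C signal of the crosslink. Per T position, counted over all reads of the intron clusters, it was 11.8% ± 0.36 in ANKRD11 and 10.9% ± 0.38 in other genes (SD, n = 3). ANKRD11 was higher by 0.994, 1.09 and 0.696 percentage points in replicates 1, 2 and 3, a mean of 0.926 ± 0.20 (exact sign-flip permutation p = 0.25, the smallest possible). Within classes of read count the difference was 1.81 ± 0.21. The share of reads that carry T-to-C had the other sign, with 81.1% ± 1.37 in ANKRD11 and 87.5% ± 0.63 elsewhere, a difference of -6.36 percentage points ± 1.80, below 0 in 3 of 3 replicates. Within classes of read count that difference was -1.14 ± 0.57, again below 0 in 3 of 3 replicates. The tables list only clusters with at least 4 reads that carry T-to-C, taken as the deposited fraction times the reads and rounded. The part of this minimum in the difference was not tested. T made up 26.6% ± 0.82 of the bases of ANKRD11 clusters and 31.9% ± 0.89 of other intron clusters (SD, n = 3). The part of T content in either difference was not tested.

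In sequence, ANKRD11 clusters were richer in C than the rest of the gene. C made up 26.7% ± 0.42 of the bases in clusters and 24.2% ± 0.042 of the rest, and A made up 18.8% ± 0.50 and 22.1% ± 0.055 (SD, n = 3). T, the base that crosslinks, was 26.6% ± 0.82 in clusters and 27.0% ± 0.061 in the rest, a difference of -0.438 percentage points ± 0.88 that is within the spread. Pyrimidines were higher in clusters by 1.93, 0.837 and 3.45 percentage points in replicates 1, 2 and 3, a mean of 2.07 ± 1.31 (exact sign-flip permutation p = 0.25, the smallest possible). Replicate 3 had the largest value, and without it the mean was 1.38. Against the 200 nt to each side of the clusters, the difference was smaller, at 1.43, 0.363 and 2.59 percentage points. Its mean was 1.46 ± 1.11 (SD, n = 3). G and C together were 54.6% ± 0.32 in clusters and 50.9% ± 0.016 in the rest. In the intron clusters of other genes they made up 47.2% ± 0.72, and pyrimidines 57.5% ± 0.86, so the ANKRD11 clusters were richer in G and C and poorer in pyrimidines than MATR3 clusters elsewhere.

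ATCTT occurred 19, 15 and 25 times within the clusters of replicates 1, 2 and 3. That was 1.17, 1.06 and 1.58 per kb, compared with 1.01, 1.005 and 0.971 per kb in the rest of the gene on the same strand. The log2 ratio was 0.21, 0.08 and 0.70, a mean of 0.33 ± 0.33 (SD, n = 3), with a positive sign in 3 of 3 replicates (exact sign-flip permutation p = 0.25, the smallest possible) and about as large as its spread. Without replicate 3 it was 0.15. Against the 200 nt to each side of the clusters it was 0.21 ± 0.095 (SD, n = 3). In the clusters found in at least 2 replicates it was -0.18 ± 0.51. Intron clusters of other genes had 2.39 ATCTT per kb ± 0.17. The motif was thus less dense in ANKRD11 clusters, with 1.27 per kb ± 0.27, than in clusters of other introns in 3 of 3 replicates. These comparisons do not allow for base composition. Among the 20 orderings of the letters of ATCTT, which have equal composition, it ranked 2 by its log2 ratio of clusters over the rest of the gene. Among all 1024 5-mers, whatever their composition, it ranked 178.

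All 5-mers were also counted in clusters against the rest of the gene, with those named chosen after their values were seen. Of 616 5-mers with at least 150 matches in the gene, 164 had a log2 ratio above 0 in all 3 replicates and 129 below 0 in all 3. Of the 10 leading ones, 6 consisted of C and T only, as did 32 of the 616. Of those 32, 18 were above 0 in all 3 replicates. Among the 6 in the leading 10, TTCCC was highest with a log2 ratio of 0.84 ± 0.33 and CCCTC lowest with 0.70 ± 0.16 (SD, n = 3). Of the 23 5-mers made of A and T only, 22 were below 0 in all 3 replicates. The lowest was AAAAA with -2.36 ± 1.04. The value of TTTTT was -1.64 ± 0.14. All cluster sequences occur once in hg38, while the rest of the gene was not limited to such sequence. The part of this in the 5-mer values was not tested. The log2 ratios of the 616 had a rho of 0.388 to 0.534 between replicates, as a description across 5-mers that share bases.

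The surroundings of the gene held few clusters. On the opposite strand within its bounds there was 1 cluster, with 5 reads in replicate 2. In the 10 kb after the 3′ end on the gene strand, replicate 1 had 1 cluster of 6 reads and replicates 2 and 3 had 0, and in the 10 kb before the 5′ end there were 0 in each. Every cluster within the bounds on the gene strand was assigned to ANKRD11. GENCODE places other genes there on that strand, ENSG00000288715 over intron 2 (89317046 to 89418292) and the long non-coding ENSG00000261692 in intron 1 (89420075 to 89422226), whose reads cannot be told apart from those of ANKRD11. Of the genes within 200 kb, ACSF3, a mitochondrial acyl-CoA synthetase gene, had 43, 44 and 34 clusters. SPG7, which encodes a mitochondrial protease and starts next to ANKRD11 on the other strand, had 6, 7 and 9. The ribosomal protein gene RPL13 had 9, 9 and 6. CPNE7 had 2, 9 and 7 and CHMP1A 2, 7 and 4, while ZNF778, SPATA33, CDK10, LINC00304 and SNORD68 had at most 2 in any replicate and CDH15, SLC22A31 and DPEP1 had none listed.

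A list of 24 genes for coregulators and chromatin factors around ANKRD11 was set beside it. It holds its relative ANKRD12, the p160 coactivators, corepressors, histone deacetylases and acetyltransferases, and cohesin genes. Clusters were found in all 3 replicates in 23 of the 24, whereas 40.7% of protein-coding genes had this. GPS2, a gene of 4.24 kb that encodes a corepressor subunit, had none listed. The list is of long genes, with a median of 149.8 kb among the 23 against 45.6 kb among all protein-coding genes with clusters in all 3 replicates. Their median was 163.7 normalised reads, compared with 64.2 over those genes, and their median density was 0.197 clusters per kb, compared with 0.201. Among the leading members, TBL1X had 1048 ± 216 normalised reads, CREBBP 898 ± 95.2, EP300 379.7 ± 184 and HDAC4 373.7 ± 6.34 (SD, n = 3). TBL1X encodes a corepressor subunit, CREBBP and EP300 histone acetyltransferases and HDAC4 a histone deacetylase. ANKRD12, named for its kinship and not for its values, had 119 ± 44.8 normalised reads in 28, 14 and 16 clusters.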

How the data were processed

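MATR3 PAR-CLIP was measured in 3 libraries of 1 group. The authors deposited 1 table of clusters per replicate, with whole counts of reads, distinct reads and conversion events per cluster, per the file headers, not normalised. They also deposited, as a fraction between 0 and 1, how many reads of a cluster carry T-to-C. In some clusters this fraction does not give a whole number of the listed reads, such as 72.7% of 13 reads in replicate 1. Shares of reads with T-to-C over several clusters use the fraction times the listed reads. The minimum of such reads is that product, rounded. The submitters' processing notes name hg38. The aligner, cluster caller and annotation release are not given in the sources used here. Clusters were called in each replicate, with at least 4 reads, 4 reads with T-to-C, 2 conversion locations and 20 nt, so weaker sites are not listed. Reads carry no molecular identifiers, and values cover reads in clusters only.

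ANKRD11 clusters were taken by the deposited gene name. Every sequence equalled hg38 at its coordinates. Overlaps, densities, base and motif counts were computed with Python 3.11.15, numpy 2.4.6, pandas 2.3.3 and scipy 1.17.1, and the counting steps were tested on made-up clusters. Introns and bounds came from GENCODE release 44. Motifs were counted on the gene strand in merged clusters, with 0.5 matches added to 5-mer counts. Within-library differences in 5 measures were tested over 3 replicates, also under the alternatives, with exact two-sided sign-flip permutation tests, whose smallest p is 0.25, so no adjustment could bring any under 0.05. Conversion per T is the percent of read T positions seen as C.

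Named regions were the 3 leading clusters per replicate and up to 12 regions with clusters in all replicates. Named genes were those most like ANKRD11, TBCD, GRB10 and SND1, the 5 leading list genes with any without clusters, and neighbours within 200 kb. Some of the genes and sequences these rules name are not reported here. The members, lists and rules were chosen with earlier results of these data known. Alternatives were stricter clusters, other overlaps, moves, transcripts, measures and backgrounds, and leaving out each replicate. A minimum of 3 distinct reads and classes of read count were added after seeing the data.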

Additional observations from a re-analysis of the deposited data

Results flagged for a closer look

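On the strand opposite to ANKRD11, which enters no comparison, replicate 2 listed 1 cluster of 33 nt with 5 reads from 1 distinct read, at chr16:89283950-89283982 opposite exon 9. It stands here because 5 reads exceed the 3 that a count of 0 allows. Every listed cluster has at least 4 reads, so any listed cluster passes that limit, and replicates 1 and 3 listed 0 clusters there.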

How the results depend on the processing

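Over 8 results, 72 values were recomputed. Of these, 58 stayed within the replicates' spread or, for a tested difference, kept their sign at whatever size. A further 10 moved by more than the spread and 4 changed sign. Neither the size nor the p-value of a tested difference entered this count. Normalised reads of 3704 became 4409 over clusters not below the library's median of reads, 4764 where 3 conversion locations were required and 4368 where 3 distinct reads were (added after seeing the data). With a required overlap of 50% of both clusters, 18.4% were found and found over moved was 2.27, and with a move of 200 nt it was 1.10. Leaving out a replicate gave 20.1% to 24.7% found, from fewer libraries to be found in, and a ratio of 1.15 to 2.19. It gave -0.016 to 0.26 clusters per kb for introns before minus after the start codon. Conversion changed sign as the percent of reads with T-to-C, at -6.36, and, added after seeing the data, within classes of read count, at -1.14. The length difference of 10.7 nt fell to 0.495 nt within classes of read count, with replicate 3 at -0.31. The log2 ratio of ATCTT changed sign in clusters found in at least 2 replicates, at -0.18. Other causes were not tested. Taking all clusters within the gene bounds, or the longest transcript, changed nothing because they are the same clusters and transcript, which says nothing about stability. No paired analysis was possible because the samples form 1 group, so that no numbers pair samples across groups, while the tested differences were taken within each library. With 3 libraries and about 8.65 distinct reads per kb of gene, differences of the size of the spread were not detectable.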
